A study of Danio rerio with 4 samples.

Results

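The nuclear genes of respiratory chain complexes III and IV and of cytochrome c were examined in livers of fasted wild-type (WT) and pex5-/- zebrafish larvae. Members were chosen by symbol, as every gene that starts with uqcr or ndufa4, or with cox followed by a digit from 4 to 8, or that is named cyc1, cycsa or cycsb. This gave 33 of the 16405 genes listed, of which 9 belong to complex III, 1 to cytochrome c and 23 to complex IV. The symbols COX5B and COX7A2 stand in capitals in the deposited values and were kept so. The members lie on 20 chromosomes of the GRCz11 assembly, and 5 of them (uqcrc1, uqcrh, cycsb, cyc1 and cox6c) lie on chromosome 6.

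Complex III takes electrons from ubiquinol and passes them through its iron-sulfur and cytochrome c1 subunits to cytochrome c, a small soluble heme protein of the intermembrane space. Complex IV, or cytochrome c oxidase, takes them from cytochrome c and reduces oxygen to water, and both complexes pump protons that drive ATP synthesis. Their catalytic centres include subunits encoded by the mitochondrial genome, cytochrome b in complex III and MT-CO1, MT-CO2 and MT-CO3 in complex IV, whereas the other subunits are encoded in the nucleus and imported. Several complex IV subunits have more than one gene, and in mammals some of these isoforms are used mainly in liver and others mainly in heart and skeletal muscle.

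The study sequenced RNA of whole livers at 6 dpf from fasted larvae, in 2 WT libraries numbered 1 and 4 and 2 pex5-/- libraries numbered 1 and 2 (KO in the plots). Pex5 is the receptor that carries most matrix proteins into peroxisomes. The mutant line descends from a single founder made with CRISPR/Cas9 that carries a small frame-shifting deletion, and homozygotes come from heterozygous parents, so that early embryos hold maternal pex5 product. All 4 samples were fasted, so no fed liver was compared, and the number of livers behind each library is not given in the sources used here. The genotypes are those of the labels and were not checked, as pex5 RNA was not analysed here.

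Each library was read near the 3′ end of transcripts with CEL-Seq2, in which every captured RNA molecule is read at its tail and marked with a unique molecular identifier (UMI). A value in TMM, the trimmed mean of M-values scaling of read counts, therefore does not grow with transcript length. The libraries held from 1217737 to 1425834 deduplicated reads, and a single read was worth from 0.691 to 0.785 TMM. Genes of the mitochondrial genome took from 34.3% to 37.5% of the reads. Markers of the labelled tissue were abundant: 12 of 12 listed hepatocyte genes reached 10 TMM, and together they took 14.3% to 19.6% of reads. The summed hepatocyte level was 145723 and 136266 TMM in WT and 196363 and 193132 TMM in pex5-/-, while the median difference over these genes was -0.03 on the log2 scale. Without the apolipoprotein gene apoa2 the other 11 summed to 78189 and 65203 TMM in WT and 72370 and 74312 TMM in pex5-/-, with overlap. Skeletal muscle markers (21 listed) summed to 587 and 4400 TMM in WT and 1504 and 1823 TMM in pex5-/-, heart markers (10 listed) to 203 and 265 TMM against 28.6 and 48.4 TMM, and erythrocyte markers (11 listed) to 1233 and 548 TMM against 2277 and 2029 TMM. Pancreas markers were highest in WT replicate 4 (4313 TMM) and intestine markers highest in pex5-/- replicate 1 (2830 TMM). Most of the intestine sum was the apolipoprotein gene apoa4b.1, at 704 and 961 TMM in WT and 2182 and 1937 TMM in pex5-/-. In such bulk samples, fewer cells of a type and less RNA per cell cannot be told apart.

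Most complex IV transcripts had higher means in pex5-/- livers. Complex III transcripts had higher means in 5 of 7 genes, with a median difference of 0.08. Cytochrome c had a lower mean, which rested on WT replicate 4. Of the 24 members whose mean reached 10 TMM, 20 had a higher and 4 a lower mean in pex5-/-, where 50.5% of all genes had a higher mean. Each pex5-/- library exceeded each WT library in 14 of the 24 (58.3%), where 16.9% of all 3349 genes tested did so. Both lay below in 0 of the 24, where 13.5% of all genes did so. The median difference over the members was 0.37 on the scale of log2(TMM + 1), against 0.00 over all genes tested. Members ranged from -0.56 for cox4i2 to 1.09 for cox5ab.

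No single member passed the test across all genes. With limma and Benjamini-Hochberg adjustment over the 3349 genes, 0 members had an adjusted p under 0.05, and 0% of all genes did. The adjusted p was 1.00 for each member. At an unadjusted limma p under 0.05 there were 4 members (cox6b1, cox5ab, cox6c and uqcr10), where 3.61% of all genes passed. With limma-voom on the recovered reads 4 members and 2.81% of all genes passed at the unadjusted level, and 0 genes at the adjusted level. The labels do not say whether libraries came from separate pools of animals. These p-values rest on the spread between the 2 libraries of a genotype, which limma moderates with that of the other genes. They may not cover the spread between animals.

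**Figure D1:**
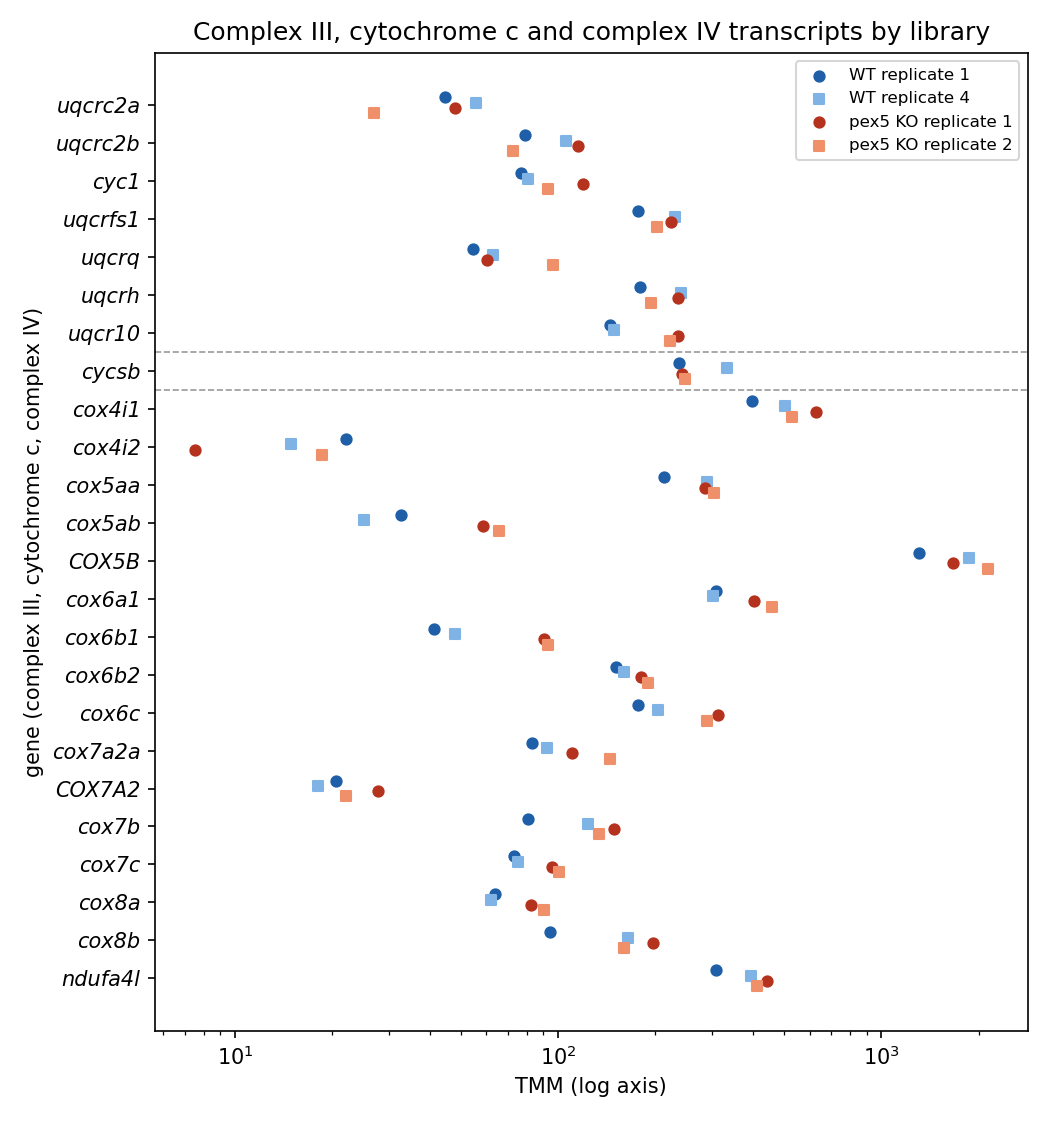
TMM (log axis) of the 24 members whose mean reached 10 TMM, shown as a point for each of the 4 libraries and dashed lines between complex III, cytochrome c and complex IV. Blue points are WT and red points pex5-/-, and for 14 genes both red points lie to the right of both blue points.

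The difference was partly set by WT replicate 1. This library had the lowest value for 17 of the 24 members, and 19 members were lower in it than in WT replicate 4. These counts were made for the members only. Whether the library was low for them in particular or for genes in general was therefore not tested. The median range between the libraries of a genotype was 0.33 in WT and 0.17 in pex5-/- on the log2 scale, and the difference between genotypes was larger than both ranges for 12 of the 24 members, where it was so for 19.1% of all genes. Without WT replicate 1 the median difference was 0.20, and the pex5-/- libraries lay above the remaining WT library for 14 members and below it for 4, where 33.9% and 34.7% of all genes did so. Without WT replicate 4 the median was 0.47, with 21 members above and 1 below, where 37.1% and 31.4% of all genes were. Without pex5-/- replicate 1 there were 17 above and 2 below (30.5% and 29.3% of all genes), and without pex5-/- replicate 2 there were 16 and 1 (33.9% and 30.04%). As a share of all reads, the members together were at 0.460% and 0.589% in WT and at 0.571% and 0.641% in pex5-/-, and on this measure the genotypes overlapped.

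**Figure D2:**
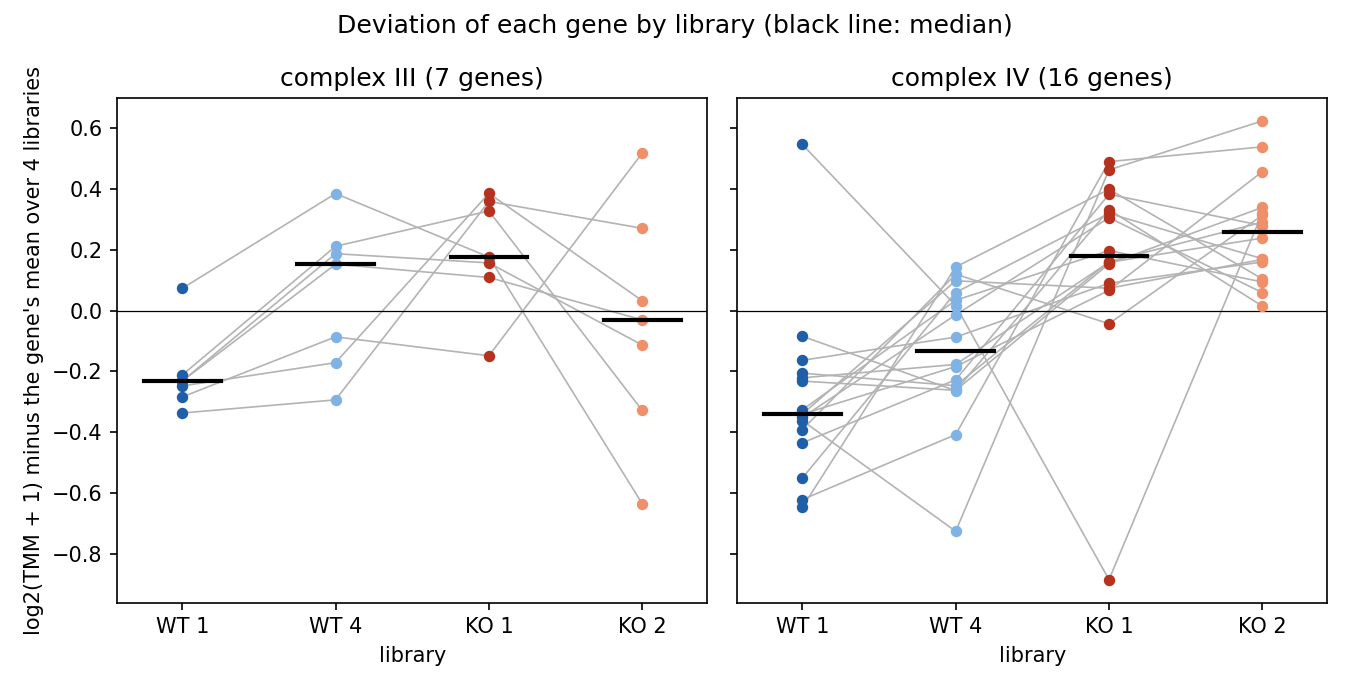
Deviation of each gene in each library from its own mean over the 4 libraries, on the scale of log2(TMM + 1), for 7 complex III genes (left) and 16 complex IV genes (right), with grey lines joining a gene and black bars for the median. For complex IV the medians were -0.34 and -0.13 in WT and 0.18 and 0.26 in pex5-/-, whereas for complex III they were -0.23, 0.15, 0.18 and -0.03 in the same order.

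Complex III had 7 tested members, with a median difference of 0.08. The core proteins on the matrix side, which are related to mitochondrial processing peptidases, were read from uqcrc2a and uqcrc2b, while uqcrc1 had at most 5 reads in any library. Gene uqcrc2a was at 44.7 and 55.8 TMM in WT and 48.1 and 27.0 TMM in pex5-/-. Its paralog uqcrc2b was at 78.8 and 106 TMM in WT and 115 and 72.6 TMM in pex5-/-. In both genes the lowest value was that of pex5-/- replicate 2 and the genotypes overlapped. The differences were -0.46 (SE 0.37) for uqcrc2a and 0.00 (SE 0.35) for uqcrc2b.

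The electron carriers of complex III are cytochrome c1, encoded by cyc1, and the Rieske iron-sulfur protein, encoded by uqcrfs1. Transcripts of cyc1 were at 76.6 and 80.9 TMM in WT and 119.5 and 93.3 TMM in pex5-/- (108, 103, 159 and 135 reads). The pex5-/- values were both the higher, and the difference was 0.42 (SE 0.27). Transcripts of uqcrfs1 were at 176 and 230 TMM in WT and 223 and 203 TMM in pex5-/-. Here both pex5-/- libraries lay between the WT libraries, and the difference of 0.08 (SE 0.27) became -0.016 when every library was scaled to the same total and -0.054 when the mitochondrial genome was also left out.

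The small subunits of complex III surround cytochrome b and cytochrome c1, and among them uqcr10 stood apart from the others. It was at 145 and 149 TMM in WT and 235 and 221 TMM in pex5-/- (204, 190, 313 and 320 reads). The WT mean was 147 ± 3.14 TMM and the pex5-/- mean 228 ± 9.93 TMM (SD, n = 2 each), a ratio of 1.55, with a difference of 0.63 (SE 0.24, 95% interval 0.02 to 1.24 from limma). The acidic hinge protein gene uqcrh, whose product helps cytochrome c1 bind cytochrome c in mammals, was at 179 and 240 TMM in WT and 234 and 194 TMM in pex5-/-. Its difference of 0.04 (SE 0.28) was -0.051 with libraries scaled to the same total and -0.089 without the mitochondrial genome. Gene uqcrq was at 54.6 and 62.8 TMM in WT and 60.1 and 96.1 TMM in pex5-/-, so that only pex5-/- replicate 2 was high. Another small subunit gene, uqcrb, gave 2 reads per WT library and 4 per pex5-/- library, too few for the test.

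The genotypes were thus apart, with pex5-/- the higher, in 2 of 7 complex III genes (28.6%, cyc1 and uqcr10), against 16.9% of all genes. Without WT replicate 4 the count was 5, where 37.1% of all genes then lay above. On TMM, 5 of the 7 genes had a higher mean in pex5-/-, against 50.5% of all genes. With libraries scaled to the same total 3 did, a scaling that also moved the median difference of all genes to -0.09.

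Cytochrome c was represented by cycsb. Its transcripts were at 236 and 333 TMM in WT and 242 and 246 TMM in pex5-/-. WT replicate 4 was high and the other 3 libraries were close together, with a difference of -0.20 (SE 0.27) that became 0.046 without WT replicate 4. It was the member with the sixth highest mean, 264 TMM. Among 8 listed genes for heme attachment to cytochrome c, for its partners in apoptosis and for import into the intermembrane space, 6 were tested, and 5 of these had higher means in pex5-/-, 4 of them without overlap, where 50.5% and 16.9% of all genes did so. The heme lyase gene hccsb was at 25.5 and 39.3 TMM in WT and 45.8 and 40.8 TMM in pex5-/-. The largest difference of this list was in gfer, a sulfhydryl oxidase of the import relay that in yeast and mammals passes electrons to cytochrome c. It was at 4.97 and 7.85 TMM in WT and 16.5 and 17.3 TMM in pex5-/- (7, 10, 22 and 25 reads). Gene gfer reached the mean of 10 TMM only through the pex5-/- libraries. The WT libraries of hccsa.1 also averaged under 10 TMM, with 10 and 14 reads in WT and 15 and 17 in pex5-/-. The filter thus favoured the place of both genes among those higher without overlap.

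Complex IV had 16 tested members, of which 15 had a higher and 1 a lower mean in pex5-/-, with a median difference of 0.43. Of all genes 50.5% had a higher mean. Each pex5-/- library was above each WT library in 12 of the 16 (75.0%), against 16.9% of all genes. The count was 9 when libraries were scaled to the same total without the mitochondrial genome, where 11.2% of all genes lay above. The difference between complexes III and IV was not tested. By the order of mean level COX5B was first at 1742 TMM, 31.2% of the TMM of all members, followed by cox4i1 at 514 TMM and ndufa4l at 390 TMM. The lowest tested member, cox4i2, had a mean of 15.8 TMM.

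**Figure D3:**
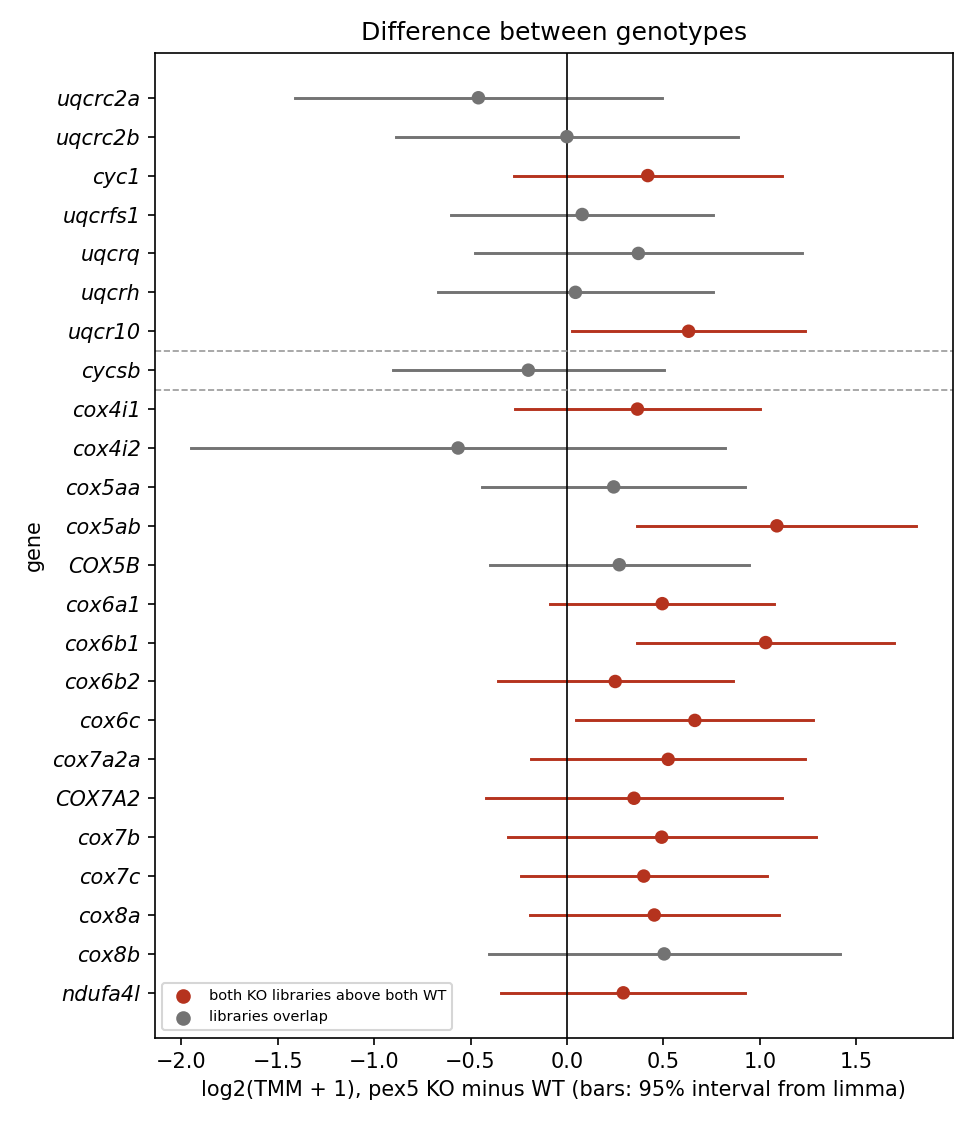
Difference between genotypes on the scale of log2(TMM + 1), pex5-/- minus WT, for the 24 tested members, with points for the estimate and bars for the 95% interval from limma. Red marks the 14 members in which each pex5-/- library exceeded each WT library, and the intervals of 20 members include 0.

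The subunits on the matrix side are encoded by the COX5A and COX5B families, and cox5ab had the largest difference of all members. It was at 32.6 and 25.1 TMM in WT and 58.6 and 65.7 TMM in pex5-/- (46, 32, 78 and 95 reads). Means were 28.9 ± 5.31 and 62.1 ± 4.98 TMM (SD, n = 2 each), a ratio of 2.15, and the log2 difference was 1.09 (SE 0.28, 95% interval 0.37 to 1.81 from limma). Its paralog cox5aa, with a mean of 272 TMM, was at 213 and 289 TMM in WT and 284 and 303 TMM in pex5-/-, so that WT replicate 4 overlapped with the pex5-/- libraries. COX5B, the zinc-binding subunit, was at 1307 and 1864 TMM in WT and 1665 and 2133 TMM in pex5-/-, again with overlap, and its difference was 0.27 (SE 0.26). The paralog cox5b2 had at most 1 read in any library.

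Subunit 6B lies on the intermembrane side near the site where cytochrome c docks, and is encoded by cox6b1 and cox6b2. Gene cox6b1 was at 41.2 and 47.9 TMM in WT and 90.2 and 93.3 TMM in pex5-/- (58, 61, 120 and 135 reads). The pex5-/- libraries were high and close together, with means of 44.5 ± 4.77 and 91.8 ± 2.21 TMM (SD, n = 2 each), a ratio of 2.06. The log2 difference was 1.03 (SE 0.26, 95% interval 0.37 to 1.70 from limma), and it lay between 0.92 and 1.14 with any library left out. The more abundant paralog cox6b2, whose mammalian counterpart is a testis form, was at 151 and 159 TMM in WT and 180 and 189 TMM in pex5-/-. The genotypes did not overlap, but the difference was 0.25 (SE 0.24).

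The transmembrane subunits 6A and 6C showed a similar order of libraries. Gene cox6c was at 176 and 203 TMM in WT and 311 and 290 TMM in pex5-/-, with a difference of 0.66 (SE 0.24). Gene cox6a1, whose mammalian counterpart is the form used in liver and most tissues, was at 308 and 302 TMM in WT and 403 and 458 TMM in pex5-/-, with a difference of 0.49 (SE 0.23). In both genes each pex5-/- library was above each WT library. When libraries were scaled to the same total, cox6c and uqcr10 no longer passed the unadjusted limma threshold, whereas cox5ab and cox6b1 still did.

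Subunit 4, the regulatory subunit that in mammals binds ATP, was read mainly from cox4i1. It was at 397 and 503 TMM in WT and 628 and 529 TMM in pex5-/-, with a difference of 0.37 (SE 0.25). The paralog cox4i2, a lung form in mammals that rises in low oxygen, was at 22.0 and 14.9 TMM in WT and 7.52 and 18.7 TMM in pex5-/- (31, 19, 10 and 27 reads). It was the only one of the 16 tested complex IV genes with a lower mean, by -0.56 (SE 0.54). The low value of pex5-/- replicate 1 set this, since without that library the difference was 0.039. The further paralog cox4i1l had from 3 to 6 reads per library.

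Subunits 7A, 7B, 7C and 8 are small transmembrane proteins of the outer shell, and their transcripts were at middle levels. Gene cox7a2a was at 83.0 and 92.7 TMM in WT and 110 and 145 TMM in pex5-/-. COX7A2, on chromosome 20, was at 20.6 and 18.1 TMM in WT and 27.8 and 22.1 TMM in pex5-/-. Gene cox7b was at 80.9 and 124 TMM in WT and 149 and 134 TMM in pex5-/-. In these 3 genes the pex5-/- libraries were the higher, with differences of 0.53, 0.35 and 0.49. The same held for cox7c, at 73.1 and 75.4 TMM in WT and 95.5 and 101 TMM in pex5-/-, and for cox8a, at 63.9 and 62.0 TMM in WT and 82.7 and 90.6 TMM in pex5-/-. WT libraries of cox7c and cox8a were close together, and the differences were 0.40 (SE 0.25) and 0.45 (SE 0.25). Gene cox8b was at 94.4 and 164 TMM in WT and 196 and 160 TMM in pex5-/-, where WT replicate 1 was low and the others overlapped. In mammals cox7a2l encodes a factor that joins complexes III and IV into supercomplexes, and only 8 and 5 of its reads were found in WT and 1 and 6 in pex5-/-.

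NDUFA4 was first assigned to complex I and is now held to be a subunit of complex IV. Its family was read almost wholly from ndufa4l, at 308 and 396 TMM in WT and 443 and 413 TMM in pex5-/-. Again pex5-/- was the higher in each library, with a difference of 0.29 (SE 0.25). The genes ndufa4 and ndufa4l2a had at most 1 read in any library, so ndufa4l took from 99.8% to 100% of the reads of the family.

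Summed over paralogs, 7 of the 8 subunit families of complex IV with several genes were higher in each pex5-/- library than in each WT library. Of all single genes tested, 16.9% were. The sums are made of members already described one by one, so they are not separate support. The subunit 8 transcripts were at 158 and 226 TMM in WT and 279 and 250 TMM in pex5-/-, without overlap although cox8b alone overlapped. COX5B with cox5b2 was the exception, at 1307 and 1865 TMM in WT and 1665 and 2134 TMM in pex5-/-. Family differences on the log2 scale lay between 0.27 for COX5B and 0.48 for subunit 8.

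The paralogs of a subunit were next compared within each library. A share of reads does not depend on the scaling of the library, and a ratio of TMM + 1 values does so only through the pseudocount. Gene cox5ab took 13.3% and 8% of the cox5aa and cox5ab reads in WT and 17.1% and 17.8% in pex5-/-. The 95% intervals (exact Clopper-Pearson, counting error only) were 9.90% to 17.3% and 5.54% to 11.1% in WT against 13.8% to 20.9% and 14.6% to 21.3% in pex5-/-. Those of WT replicate 1 and the pex5-/- libraries overlapped. Gene cox6b1 took 21.4% and 23.1% of the cox6b1 and cox6b2 reads in WT and 33.3% and 33.0% in pex5-/-. Gene uqcrc2a took 36.2% and 34.5% of its pair in WT and 29.5% and 27.1% in pex5-/-. In these 3 pairs the shares of the genotypes did not overlap, but some of their intervals did. For uqcrc2a each WT interval overlapped both pex5-/- intervals, as with 29.1% to 43.8% against 23.5% to 36.04% in replicate 1 of each genotype. For cox6b1 the interval of WT replicate 4 reached 28.7%, just above the start of both pex5-/- intervals at 28.5%. That of WT replicate 1 ended at 26.8%, below both.

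On the log2 scale the ratio of cox5ab over cox5aa was 0.85 higher in pex5-/-, that of cox6b2 over cox6b1 was lower (-0.78) and that of uqcrc2b over uqcrc2a was 0.46 higher. The two-sided exact permutation p was 0.333 for each of them, the smallest that 2 against 2 libraries allow, and 0.667 after adjustment over the 6 pairs. The cox5ab ratio was 0.44 without WT replicate 4, whereas the cox6b ratio lay between -0.85 and -0.71 with any library left out. The other 3 ratios overlapped between genotypes, at -0.93 for cox4i2 over cox4i1, 0.05 for cox8b over cox8a and -0.18 for COX7A2 over cox7a2a (exact permutation p of 0.667, 1 and 1). Single libraries set these, since the cox4i2 ratio was -0.20 without pex5-/- replicate 1 and -1.66 without pex5-/- replicate 2, the cox8b ratio was -0.37 without WT replicate 1, and the COX7A2 ratio was 0.18 without pex5-/- replicate 2. Whether close paralogs share reads near their 3′ ends was not tested.

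**Figure D4:**
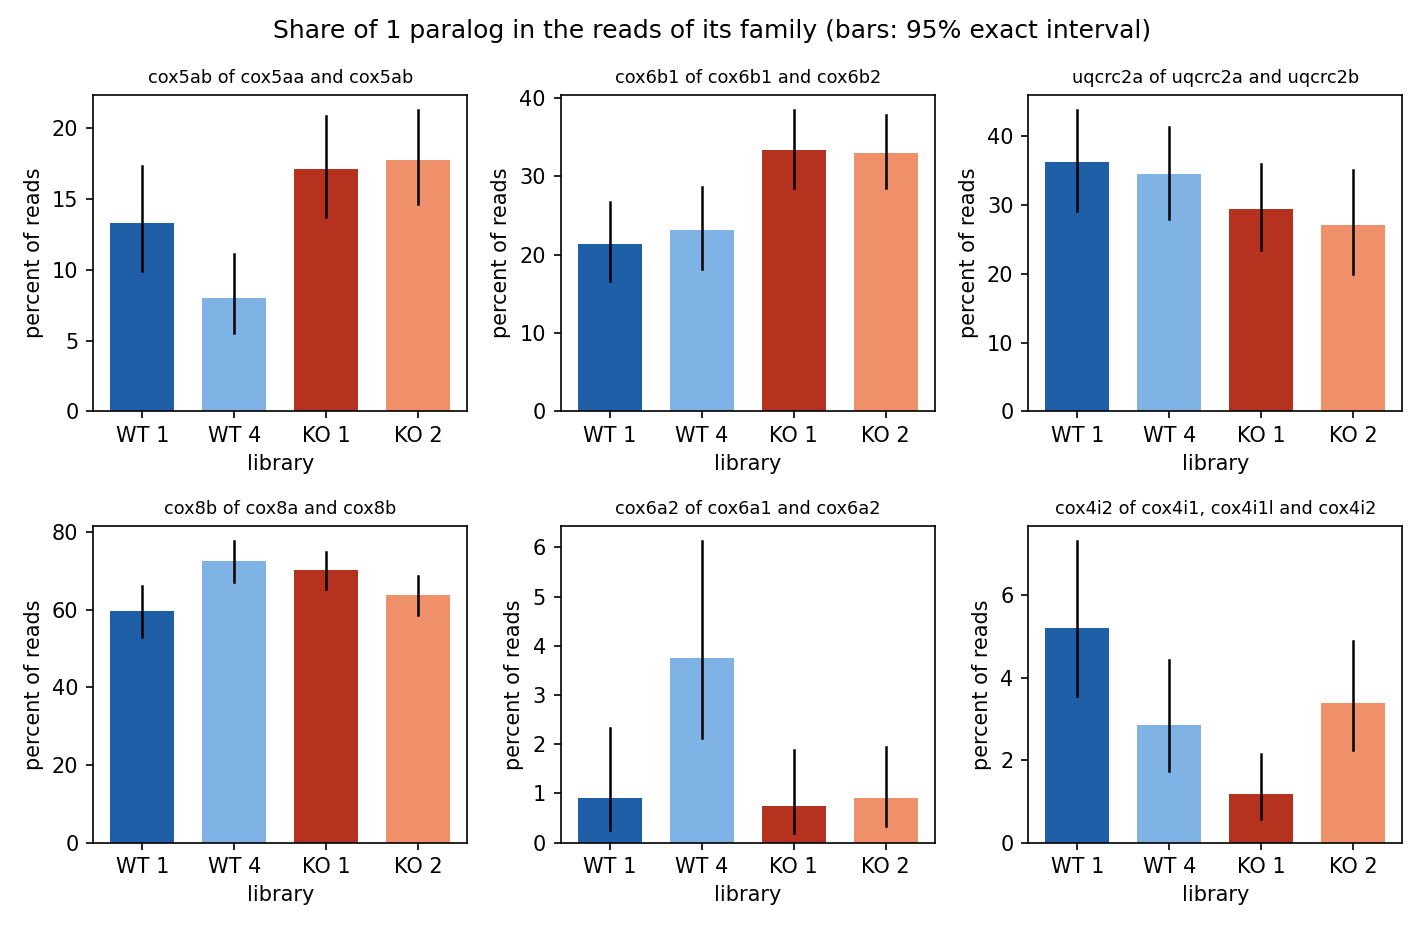
Share of a paralog in the deduplicated reads of its family, in percent, for 6 families and 4 libraries, with bars from 0 and black lines for the 95% exact interval of the share. The shares of cox6b1 are 21.4% and 23.1% in WT and 33.3% and 33.0% in pex5-/-, while cox6a2 is at 3.76% in WT replicate 4 and below 1% elsewhere.

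Of the forms known from muscle, cox6a2 and cox7a1 were scarce in these livers and cox8b was not. In mammals COX6A2 and COX7A1 are heart and skeletal muscle forms. Reads of cox6a2 numbered 4 and 15 in WT and 4 and 6 in pex5-/-, which was 0.913%, 3.76%, 0.741% and 0.897% of the cox6a1 and cox6a2 reads. WT replicate 4 had the highest share, and its interval of 2.12% to 6.12% lay above that of both pex5-/- libraries but overlapped that of WT replicate 1 (0.249% to 2.32%). This library also had the highest summed level of skeletal muscle markers, 4400 TMM against 587 to 1823 TMM in the others, with the actin gene actc1b at 873 TMM, while mylpfa was at or below 2.07 TMM in every library and myhz1.3 at 0 in 3 of them. The part of muscle RNA in the cox6a2 reads was not tested. Reads of cox7a1 numbered 8 and 8 in WT and 8 and 7 in pex5-/-, nearly the same in every library. COX8B is a heart and muscle form in mammals, but cox8b took from 59.6% to 72.6% of the cox8a and cox8b reads in these livers.

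Of 10 listed heart markers 4 were tested, and all 4 were lower in pex5-/- without overlap, where 13.5% of all genes were. The myosin light chain myl7 was at 87.3 and 132 TMM in WT and 15.0 and 14.5 TMM in pex5-/-. Gene nppa was at 13.5 and 18.1 TMM against 0 and 10.4 TMM, and cmlc1 at 34.1 and 26.7 TMM against 0 and 1.38 TMM. Both nppa and cmlc1 reached the mean of 10 TMM only through the WT libraries. The filter thus favoured their place among the lower genes. Among the heart markers under 10 TMM, myh6 overlapped, at 6.39 and 3.93 TMM in WT and 0.752 and 6.91 TMM in pex5-/-. Genes tnnc1a and actc1a were at 0 in both pex5-/- libraries, but actc1a had at most 2 reads in WT. The direction of the tested heart markers was opposite to that of most complex IV genes. Erythrocyte markers had the direction of the complex IV genes, with higher means in 9 of 9 tested genes (50.5% of all genes), 6 of them without overlap (16.9% of all genes). Gene alas2 was at 0 in 3 libraries. Among intestine markers, vil1 was at 207 TMM in pex5-/- replicate 1 and from 1.38 to 14.9 TMM in the other libraries, whereas apoa4b.1 was at 704 and 961 TMM in WT and 2182 and 1937 TMM in pex5-/-. Their part in the complex IV values was not tested. Hepatocyte markers did not share a direction, with higher means in 5 and lower means in 7 of 12.

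The nuclear genes were then set against the mitochondrially encoded subunits of the same complexes, whose means were lower in pex5-/- but mostly with overlap. Transcripts of mt-co1 were at 12058 and 7837 TMM in WT and 8408 and 8240 TMM in pex5-/-, those of mt-co2 at 12112 and 12854 TMM against 11549 and 11657 TMM, and those of mt-co3 at 3588 and 4189 TMM against 4036 and 3628 TMM. For mt-cyb the values were 5759 and 5034 TMM in WT and 5535 and 4850 TMM in pex5-/-. All 4 had lower means in pex5-/- with a median difference of -0.08. The lower mean of mt-co1 rested on WT replicate 1, since WT replicate 4 was below both pex5-/- libraries. For mt-co3 and mt-cyb the differences were -0.019 and -0.055, with overlap. Only in mt-co2 were both pex5-/- libraries below both WT libraries, which 13.5% of all genes were. These RNAs are read through a priming step at poly(A) tails, and mitochondrial tails were not measured.

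Summed nuclear complex IV transcripts amounted to 12.2% and 17.6% of the mt-co1, mt-co2 and mt-co3 level in WT and 19.8% and 21.9% in pex5-/-. The difference of the log2 ratio was 0.51, about the size of the range between the WT libraries (0.52), with an exact permutation p of 0.333, the smallest possible. It was 0.57 when COX5B was left out, 0.25 without WT replicate 1 and 0.77 without WT replicate 4. For complex III against mt-cyb the shares were 13.2% and 18.4% in WT and 18.8% in both pex5-/- libraries, and the difference of 0.27 became 0.03 without WT replicate 1 and 0.51 without WT replicate 4.

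Assembly of complex IV needs copper chaperones, heme synthesis and membrane factors. Of 29 listed assembly genes 12 were tested, with higher means in 10 (50.5% of all genes) and lower in 2, and a median difference of 0.20. Without overlap, 3 were higher in pex5-/-, namely surf1, cox20 and coa8, and 1 was lower, cox16, which is 3 and 1 of 12 where 16.9% and 13.5% of all genes did so. Reads were few, at 15 and 13 in WT and 18 and 18 in pex5-/- for coa8. For cox16 they were 23 and 19 against 19 and 20, which overlap until the reads are scaled for library depth. The heme insertion factor gene surf1 was at 10.6 and 7.07 TMM in WT and 14.3 and 13.8 TMM in pex5-/- (15, 9, 19 and 20 reads). It reached the mean of 10 TMM only through the pex5-/- libraries, which favoured its place in this count. The MT-CO2 chaperone gene cox20 was at 29.1 TMM in both WT libraries and 37.6 and 42.2 TMM in pex5-/-. Of 5 listed complex III assembly genes 2 were tested, and uqcc1, a cytochrome b assembly factor, was at 38.3 and 33.0 TMM in WT and 51.9 and 47.7 TMM in pex5-/-, while uqcc2, another such factor, was at 8.52 and 14.9 TMM in WT and 10.5 and 11.8 TMM in pex5-/-, with overlap.

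The other proton-pumping and ATP-forming complexes gave similar counts. Of 27 tested complex I subunit genes, 14 (51.9%) lay above WT in each pex5-/- library, with a median difference of 0.35, and of 18 tested ATP synthase genes 11 (61.1%), with a median of 0.41. The members stood at 58.3% and 0.37, and all 3349 genes tested at 16.9% and 0.00. The difference between these groups was not tested.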

How the data were processed

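Liver RNA of 2 WT and 2 pex5-/- samples, all fasted, was read by CEL-Seq2. The authors extracted UMIs (UMI-tools 1.1.1), trimmed reads (Trim Galore 0.6.7), mapped them to GRCz11 (HISAT2 2.2.1), counted per gene (featureCounts 2.0.1), removed UMI duplicates, applied TMM scaling in edgeR and deposited log2(TMM + 1) values. The annotation release and strand setting are not given in the sources used here. The logarithm was undone, and 100% of values were whole multiples of a library's step (tolerance 0.01 read), which gave the reads.

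The members, gene lists and tests were chosen with earlier results of these data known, and the pair of COX7A2 and cox7a2a was added after its values were seen. All members are accounted for, and those whose mean reached 10 TMM are named with every value. The 9 members under that mean had at most 15 reads in any library. A floor of 3 reads is from 2.07 to 2.36 TMM. All genes reaching that mean were fitted in R 4.3.3 with limma 3.58.1 (lmFit, then eBayes with trend), p-values were adjusted by Benjamini-Hochberg and 0.05 was the threshold. This scale understates the change of low genes. Paralog ratios were tested with exact permutations. Intervals of shares are 95% Clopper-Pearson. Python 3.11.15, numpy 2.4.6, pandas 2.3.3 and scipy 1.17.1 were used, and the fit was tested on simulated data. The 12 alternatives covered the pseudocount, filter, scaling, trend, voom weights and each library left out. Counts for each complex and the ratios to mitochondrially encoded transcripts were added after seeing the data. Chromosomes are those of the deposited values, and no sequence was used.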

Additional observations from a re-analysis of the deposited data

How the results depend on the processing

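No paired analysis was possible because the genotypes share only 1 replicate number. With 12 alternatives, 0 members passed the adjusted limma threshold, with a lowest adjusted p of 0.429. Of the 24 named members, 19 kept the sign of their difference under every alternative. Scaling every library to the same total moved the median of all genes to -0.09 and of the members to 0.27, and leaving out the mitochondrial genome as well moved them to -0.12 and 0.24, so that members lay 0.36 above all genes in each. Under these 2 scalings 14 and 11 members were higher in each pex5-/- library than in each WT library, against 13.0% and 11.2% of all genes, and 1 and 2 members lay below, against 19.3% and 22.2%. With a library left out, the number above was 14 to 21 (30.5% to 37.1% of all genes) and the number below 1 to 4 (29.3% to 34.7%), and the median was 0.20 to 0.47. With a library left out, the count above ranged from 2 to 5 for complex III and from 12 to 15 for complex IV. The complex IV count was 9 of 16 with libraries scaled to the same total without the mitochondrial genome. Counts for each complex were chosen after seeing the data. The sign of uqcrc2b turned with a pseudocount of 5 (0.00078), and with a library left out its difference ranged from -0.33 to 0.33. Under the 2 scalings uqcrfs1 was at -0.016 and -0.054 and uqcrh at -0.051 and -0.089. With a library left out they ranged from -0.11 to 0.27 and from -0.17 to 0.25, cycsb from -0.45 to 0.046 and cox4i2 from -1.17 to 0.039, the log2 ratio of cox8b over cox8a from -0.37 to 0.47 and that of COX7A2 over cox7a2a from -0.53 to 0.18. Without a trend in limma 2 members and 3.08% of all genes had an unadjusted p under 0.05. Depth limits the 9 members under 10 TMM, which had at most 15 reads in any library. The cause of these shifts was not tested.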
